A study of Mus musculus with 6 samples.

Results

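Chemokines are small secreted proteins that steer leukocytes along concentration gradients, and each acts through G protein-coupled receptors on the responding cell. Ligands of the CC class mainly attract monocytes, macrophages, eosinophils and lymphocytes, whereas many CXC ligands attract neutrophils or activated T cells. In fat, chemokines such as CCL2 are known as signals that bring monocytes into the tissue, where they become macrophages. The genes described here are all those whose single annotated symbol on the array begins with Ccl, Cxcl, Cx3cl, Xcl, Ccr, Cxcr or Cx3cr followed by a digit. There are 49 such genes among 18193 named genes, of which 33 encode ligands and 16 receptors. A further 4 probe sets list several symbols with a chemokine among them and were left out.

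RNA came from the epididymal fat pad, the white adipose depot beside the epididymis, of male mice aged 10 weeks on a mixed C57BL6;129Sv background. The 3 Pparg ldi/+ mice carried a single copy of the ldi allele of Pparg, which the labels tie to lipodystrophy, and the 3 wild-type mice were matched to them by litter. Each mouse gave its own Affymetrix MOE430v2.0 array. What ldi alters in the gene, and which mice were littermates, is not stated in the labels. Pparg, the nuclear receptor gene that drives fat cell differentiation, had a mean signal of 4605 ± 341 in the wild-type mice and 1781 ± 104 in the Pparg ldi/+ mice (SD, n = 3 each). The number of arrays limits the precision of every value below.

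A signal is the deposited intensity scaled so that each array has a trimmed mean of 500. Differences are on the scale of log2(signal + 32), Pparg ldi/+ minus wild type, and this offset understates changes of dim genes. Signals of different probe sets do not rank genes by abundance. A gene was tested where its mean log2 value reached 7.46, the median of all probe sets, and it rose or fell where the limma adjusted p was below 0.05. The test covered 11201 genes, of which 16.3% passed with Pparg ldi/+ higher and 16.4% with Pparg ldi/+ lower. The values of the genotypes did not overlap in 47.6% of these genes, 23.6% with Pparg ldi/+ higher and 24% with it lower. The median log2 difference of all tested genes was -0.00.

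The arrays differed in cell type markers. All 15 macrophage markers rose, and their summed signal ranged from 46592 to 61481 across wild-type arrays and from 126560 to 129366 across Pparg ldi/+ arrays. The 8 T cell markers summed to 561 to 942 on the wild-type arrays and 1974 to 2795 on the Pparg ldi/+ arrays, but only 2 were bright enough to be tested, of which Il7r rose and Cd247 fell. Of 5 monocyte markers, 4 were tested and 3 rose (Plac8 by 2.81, Itgal by 1.68 and Spn by 0.62); the summed signal, 10770 to 15419 and 13794 to 15239, was mostly that of Fn1, which did not pass (-0.26). Of 6 dendritic cell markers, 5 were tested and 2 rose, Itgax by 2.52 and Flt3 by 0.78, while Batf3 (0.55), Cd209a (0.70) and Zbtb46 (-0.42) did not pass; the sums of 1253 to 1924 and 4466 to 5478 differed mainly through Itgax. Of 5 B cell markers, 3 were tested and 2 rose, with sums of 469 to 646 and 1324 to 1573. Flt3 and the B cell marker Cd79b were below the filter level in wild type and reached it through their Pparg ldi/+ values, which favours rises. Of 5 mast cell markers 2 rose, with sums of 1124 to 2310 and 2429 to 3246. Of 8 neutrophil markers, 6 lay below the filter, and the sums were 848 to 1525 on wild-type and 1345 to 1766 on Pparg ldi/+ arrays. Csf3r rose by 1.43 and S100a8 (-0.26) did not pass. Of 4 natural killer cell markers, 2 were tested, Klrk1 (0.55) and Gzma (0.81), and neither passed. Their list summed to 553 to 681 on wild-type and 655 to 1244 on Pparg ldi/+ arrays. All 3 eosinophil markers lay below the filter. Of 7 adipocyte markers, which identify the labelled tissue, 6 fell and all 7 were read, with a sum of 136379 to 156241 in wild type and 68588 to 77385 in Pparg ldi/+. All 6 endothelial markers fell, with sums of 13421 to 14577 in wild type and 6119 to 7165 in Pparg ldi/+, and 3 of 4 mesothelial markers fell, with sums of 6110 to 8279 and 3281 to 3927. Of 6 stromal markers, 2 rose and 1 fell, with sums of 56788 to 60563 in wild type and 61820 to 66614 in Pparg ldi/+. Markers of the epididymis summed to 883 to 1729 in wild type, 928 on Pparg ldi/+ array 3, and 23670 and 32360 on Pparg ldi/+ arrays 1 and 2. The part of these cell types in the chemokine differences was not tested, and in whole tissue more cells of a type and more RNA per cell cannot be told apart.

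Most of the chemokine genes that could be tested were higher in Pparg ldi/+ fat. Of the 33 ligands, 21 passed the filter; 13 of them rose and 1 fell, with a median log2 difference of 0.97. Of the 16 receptors, 6 passed the filter and all 6 rose, with a median of 1.29. Of the members that rose, 10 ligands and 5 receptors did so at least 2-fold, beside 4.72% of all genes tested. In the 13 ligands and 6 receptors that rose, every Pparg ldi/+ array lay above every wild-type array. This largely follows from choosing them by a test on the same arrays, so it adds no further support. The members that passed favour rises, because Ccl12, Cxcl10, Cxcl2 and Cxcr6 were below the filter level in wild type and reached it through their Pparg ldi/+ values. Fitting every gene without the filter avoids this choice: 14 of the 33 ligands and 7 of the 16 receptors were then past the threshold with Pparg ldi/+ higher, 42.4% and 43.8%, beside 9.73% of all 18193 genes. Without Pparg ldi/+ array 1, 8 ligands and 4 receptors rose. With Pparg ldi/+ array 3, which lacked the epididymal transcripts, as the only Pparg ldi/+ array, 6 of 19 ligands and 3 of 5 receptors rose, beside 6.57% of all genes tested, and the medians were 0.71 and 1.28. In that fit the wild-type arrays alone supply the spread, and the lone Pparg ldi/+ array is assumed to vary as they do. Its log2 differences were 3.73 for Cxcl10, 2.79 for Ccl8, 1.71 for Ccl5 and 2.21 for Cx3cr1. It called 1611 genes in all, beside 3668 with all 6 arrays.

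**Figure D1:**
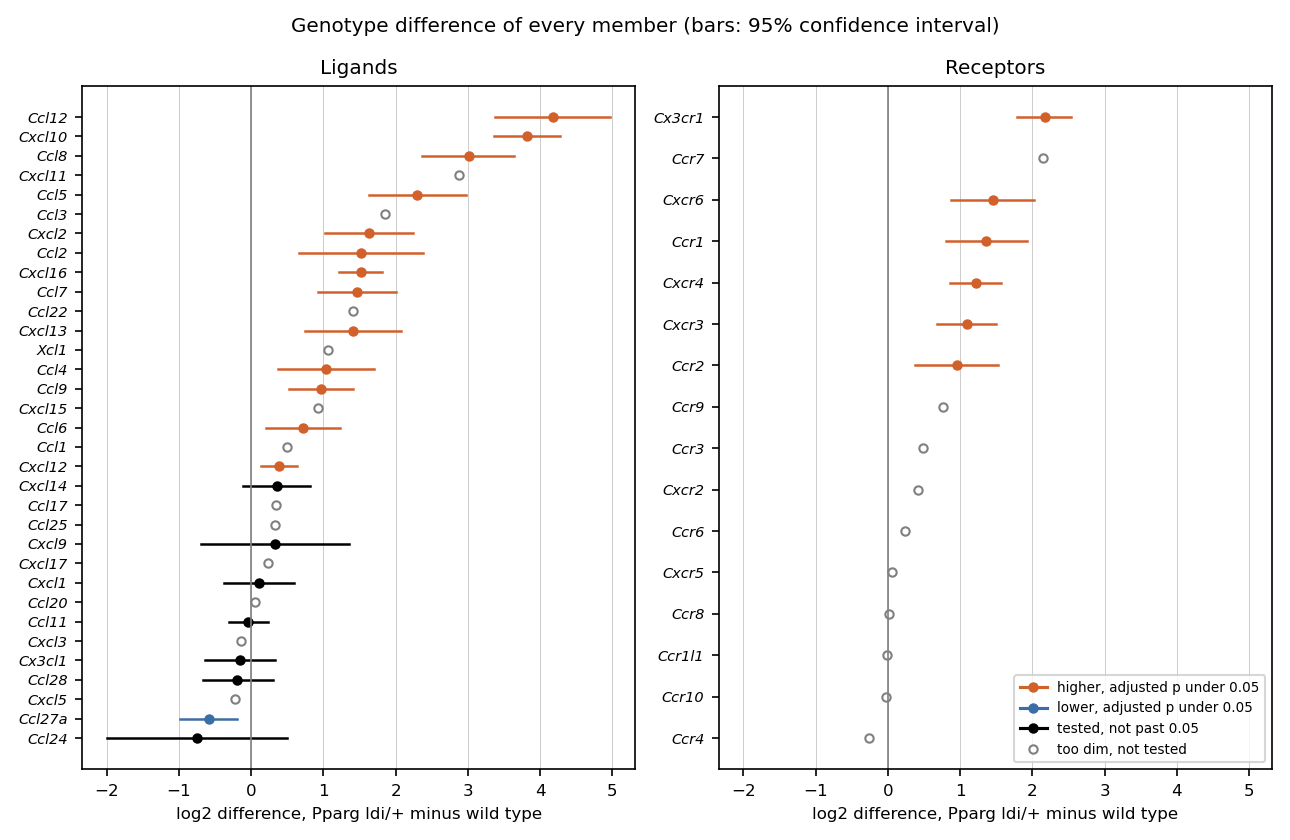
Log2 difference of Pparg ldi/+ minus wild type for each of the 33 ligands and 16 receptors, with 95% confidence intervals (limma) for tested genes and open circles for genes too dim to be tested. The 13 ligands and 6 receptors that rose lie to the right of 0, Ccl27a alone lies significantly to the left, and Ccl12 (4.18), Cxcl10 (3.82) and Ccl8 (3.01) are the tested ligands farthest to the right on this scale.

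The ligands of CCR2, the receptor that recruits inflammatory monocytes, all rose. Ccl12, a mouse monocyte chemoattractant, read 114, 61.3 and 16.3 on wild-type arrays 1 to 3 and 1667, 1704 and 1286 on the Pparg ldi/+ arrays. Every Pparg ldi/+ value was thus far above every wild-type value, and the log2 difference was 4.18 (95% confidence interval 3.38 to 4.97, 18.1-fold, limma adjusted p = 4.84e-05). Ccl2, the monocyte chemoattractant protein gene, read 1150, 567 and 294 in wild type and 1865, 1597 and 1725 in Pparg ldi/+. Its groups did not overlap, but wild-type array 1 lay close to the Pparg ldi/+ arrays, and the log2 difference of 1.52 (interval 0.66 to 2.38, 2.86-fold, limma adjusted p = 0.0147) no longer passed without Pparg ldi/+ array 1 (1.46) or with array 3 alone (1.52). Ccl7, a close relative of Ccl2, read 413, 215 and 192 in wild type and 767, 836 and 716 in Pparg ldi/+. It rose by 1.46 (2.76-fold, limma adjusted p = 0.00179), and with Pparg ldi/+ array 3 alone the difference was 1.36 and did not pass.

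Ccr2 itself, the receptor of these 3 ligands, rose as well. It read 1331, 1355 and 756 in wild type and 3018, 1800 and 1915 in Pparg ldi/+, a log2 difference of 0.96 (interval 0.38 to 1.53, 1.94-fold, limma adjusted p = 0.0192). Pparg ldi/+ array 1 was the highest, and without it the difference was 0.73 and did not pass; with array 3 alone it was 0.77 and did not pass. Over all genes, 29% of 22519 probe sets passed when each was tested on its own. Of the 4 probe sets of Ccr2, the next brightest differed by 0.87 and passed, and the 2 dimmest differed by 0.28 and 0.32 and did not. Averaging the 4 gave 0.61, which passed.

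Ccl8, a ligand of CCR8 in mice that attracts T helper cells and other leukocytes, rose as well. It read 1423, 1057 and 565 in wild type and 8658, 8268 and 6767 in Pparg ldi/+, with no overlap. The log2 difference was 3.01 (interval 2.37 to 3.64, 8.04-fold, limma adjusted p = 8.25e-05). Ccr8 was dim on all 6 arrays, with signals of 4.74 to 8.47, and was not tested. Ccl1, the other CCR8 ligand, was also below the filter, at 13 to 39 in wild type and 16.3 to 80.4 in Pparg ldi/+.

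Ccl3, Ccl4, Ccl5, Ccl6 and Ccl9, inflammatory CC ligands that attract macrophages, T cells and natural killer cells, rose in each of the 4 that were tested. Ccl5 (RANTES), made by T cells, natural killer cells and macrophages, read 260, 270 and 210 in wild type and 1205, 2267 and 873 in Pparg ldi/+. Its log2 difference was 2.30 (interval 1.63 to 2.97, 4.94-fold, limma adjusted p = 0.000501), and Pparg ldi/+ array 2 stood above the other two. Ccl4, a macrophage inflammatory protein gene, read 211, 142 and 196 in wild type and 457, 590 and 240 in Pparg ldi/+. It rose by 1.03 (2.04-fold, limma adjusted p = 0.0259), but the call ended without Pparg ldi/+ array 1 (0.95), Pparg ldi/+ array 2 (0.77) or wild-type array 2 (0.89), with no filter (1.03), and with Pparg ldi/+ array 3 alone (0.35). Array 3 was thus the Pparg ldi/+ array nearest to wild type for Ccl4.

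Ccl9 and Ccl6, mouse CC chemokines of myeloid cells that act through CCR1, were bright in both genotypes. Ccl9 read 6636, 4127 and 3907 in wild type and 8004, 9426 and 10771 in Pparg ldi/+, and rose by 0.97 (1.96-fold, limma adjusted p = 0.00524). Its other probe set differed by 0.78 and passed as well. Ccl6 read 9730, 4832 and 5327 in wild type and 10040, 9921 and 11204 in Pparg ldi/+. Wild-type array 1 almost reached the Pparg ldi/+ arrays, and the difference of 0.72 (1.64-fold, limma adjusted p = 0.0395) did not pass without Pparg ldi/+ array 1 (0.74), array 2 (0.75) or array 3 (0.66), without wild-type array 2 (0.52) or array 3 (0.59), with array weights (0.60), without the filter or the intensity trend (0.72 each), or with Pparg ldi/+ array 3 alone (0.83). Its second probe set differed by 0.83 and passed.

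Ccl3, the fifth ligand of this group, was too dim for the test. Its signal lay between 6.08 and 12.5 on wild-type arrays and between 90.7 and 149 on Pparg ldi/+ arrays, without overlap, and in the fit without a filter the limma adjusted p was 0.00103. Ccr1, a receptor of several of these ligands on monocytes, macrophages and neutrophils, read 682, 354 and 315 in wild type and 1126, 1046 and 1266 in Pparg ldi/+. It rose by 1.36 (interval 0.80 to 1.92, 2.57-fold, limma adjusted p = 0.00299), and passed in each alternative that tested it. Ccr1l1, a receptor-like neighbour of Ccr1, was below the filter at 105 to 121 in wild type and 91.1 to 129 in Pparg ldi/+.

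Wild-type array 1 was the highest of its group for 10 of the 13 ligands that rose and array 3 the lowest for 8, whereas among the 6 receptors array 1 was the highest for 2. Wild-type array 1 also had the highest summed signal of its group in 9 of the 14 marker lists, those of macrophages, monocytes, T cells, natural killer cells, eosinophils, adipocytes, endothelium, stroma and epididymis. Among the Pparg ldi/+ arrays no array led in the same way: array 2 was the highest for 6 of the 13 ligands, array 1 for 5 and array 3 for 2.

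**Figure D2:**
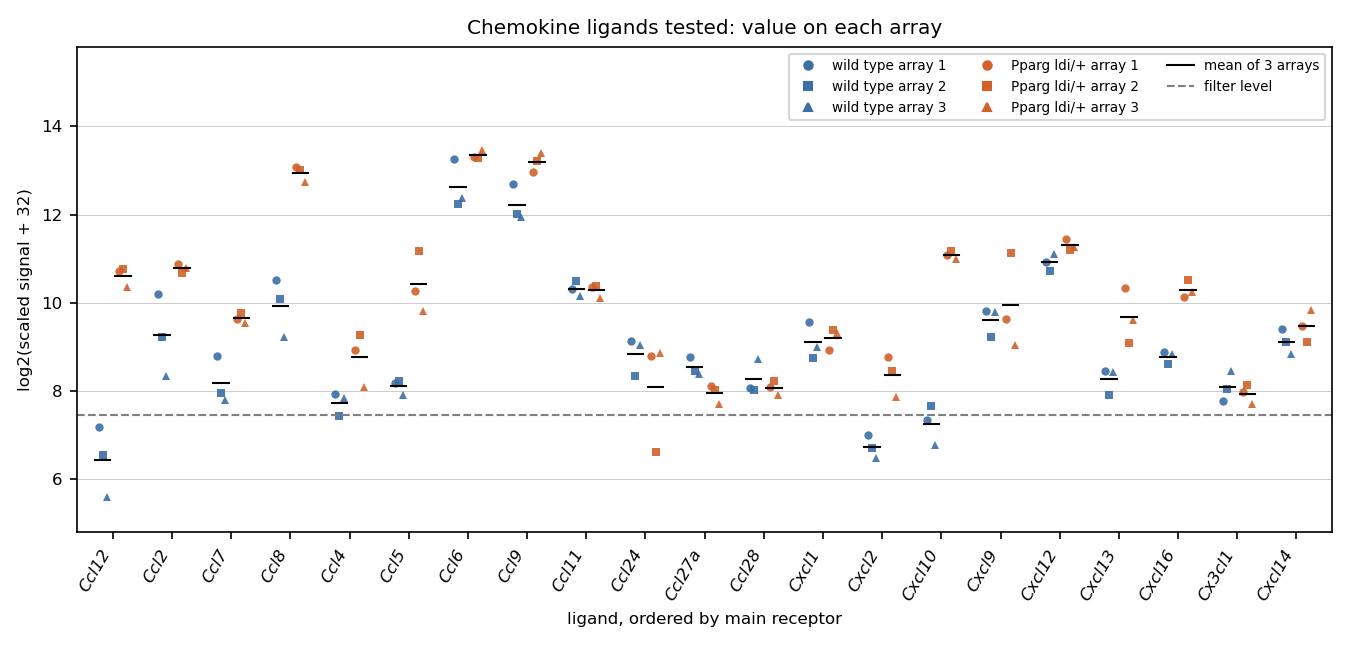
Log2(scaled signal + 32) of the 21 tested ligands on each of the 6 arrays, ordered by the receptor they mainly act on; symbols mark the array number, black bars the mean of 3 arrays and the dashed line the filter level of 7.46. Ccl12, Ccl8 and Cxcl10 separate the genotypes most widely, while Ccl11, Ccl28 and Cx3cl1 overlap, and Cxcl9 and Ccl24 each have a lone distant value on Pparg ldi/+ array 2.

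The ligands of CCR3, the eosinophil receptor, did not share these rises. Ccl11 (eotaxin) read 1234, 1412 and 1100 in wild type and 1280, 1298 and 1070 in Pparg ldi/+. The groups overlapped fully and the log2 difference was -0.04 (interval -0.31 to 0.24, limma adjusted p = 0.849), so that a change of more than 0.31 in either direction lies outside its interval. Ccl24 (eotaxin 2), a product of alternatively activated macrophages, read 532, 291 and 499 in wild type and 411, 66.6 and 435 in Pparg ldi/+. The low value on Pparg ldi/+ array 2 set its difference of -0.75, which did not pass (interval -1.99 to 0.49, adjusted p = 0.333), and without that array it was -0.01. Ccr3 was below the filter, at 16.3 to 75.3 in wild type and 54.6 to 84 in Pparg ldi/+.

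Cxcl10, Cxcl9 and Cxcl11 are the interferon-induced ligands of CXCR3, a receptor of activated T cells and natural killer cells, and they differed from each other in how clearly they separated the genotypes. Cxcl10 read 131, 170 and 78 in wild type and 2123, 2275 and 2008 in Pparg ldi/+, a tight group far above wild type. Its log2 difference was 3.82 (interval 3.36 to 4.28, 14.1-fold, limma adjusted p = 5.09e-06). Cxcl9 read 872, 566 and 854 in wild type and 766, 2226 and 500 in Pparg ldi/+. Only Pparg ldi/+ array 2 stood above the wild-type arrays, and the difference of 0.33 did not pass (interval -0.70 to 1.36, adjusted p = 0.618). Without that array it was -0.26. The second probe set of Cxcl9 read 280, 177 and 225 against 301, 546 and 193, with array 2 again the highest. On that set Pparg ldi/+ array 1 also lay above the wild-type arrays, and array 3 lay within their range.

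Cxcl11, which RefSeq lists as a transcribed pseudogene in the GRCm38.p6 assembly, was too dim in wild type for the test. It read 10.5, 23.2 and 22.7 in wild type and 292, 654 and 199 in Pparg ldi/+, without overlap, and without a filter the limma adjusted p was 0.00154. Pparg ldi/+ array 2 was again the highest. Cxcr3 read 257, 188 and 175 in wild type and 442, 568 and 415 in Pparg ldi/+ and rose by 1.09 (interval 0.68 to 1.50, 2.13-fold, limma adjusted p = 0.00197). With Pparg ldi/+ array 3 alone it differed by 0.92 and did not pass. Pparg ldi/+ array 2 had the highest value of its group for Cxcl9, Cxcl10, Cxcl11 and Cxcr3. It also had the highest T cell (2795), natural killer cell (1244), B cell (1573), adipocyte (77385) and epididymis (32360) sums of its group.

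The proximal promoters of Cxcl10 and of its neighbour Cxcl9 are shown because these adjacent genes, both known to respond to interferon, differed in this comparison. Both come from RefSeq's GRCm38.p6 annotation and are the 250 bases before the annotated start: chr5:92348890-92349139, minus strand, for Cxcl10 and chr5:92328080-92328329, minus strand, for Cxcl9. Capitals mark matches, on either strand, to the interferon response element (GAAA and GAAA with any NN between) or to the wider NF-kB motif (GGG and TTCC with any NNN between).
Cxcl10: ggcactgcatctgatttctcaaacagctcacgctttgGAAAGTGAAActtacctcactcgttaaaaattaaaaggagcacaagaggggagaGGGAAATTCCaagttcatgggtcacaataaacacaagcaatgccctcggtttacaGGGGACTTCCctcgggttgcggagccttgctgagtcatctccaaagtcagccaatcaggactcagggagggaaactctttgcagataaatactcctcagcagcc
Cxcl9: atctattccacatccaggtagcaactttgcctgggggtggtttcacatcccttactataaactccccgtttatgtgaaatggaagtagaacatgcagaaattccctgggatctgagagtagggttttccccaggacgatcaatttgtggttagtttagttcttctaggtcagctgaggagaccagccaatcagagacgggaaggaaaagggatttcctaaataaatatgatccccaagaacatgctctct

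In Cxcl10 the interferon match began 213 bases before the start and the NF-kB matches 159 and 104 bases before it. None of the motifs searched was found in the Cxcl9 window, which says only that these letters do not occur there. The interferon motif occurred in 3.44% and the wider NF-kB motif in 5.56% of 32851 promoter windows of 300 bases, 250 before and 50 after a start. Of the 49 members, 36 had a promoter in the table, with 40 windows in all. Among these windows 2 held the interferon motif, those of Cxcl10 and Cxcl14, and 9 held the wider NF-kB motif.

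The CXCR2 ligands, which attract neutrophils, gave a mixed picture. Cxcl2 (macrophage inflammatory protein 2) read 96.7, 73.2 and 57.9 in wild type and 405, 321 and 202 in Pparg ldi/+, and rose by 1.63 (interval 1.02 to 2.24, 3.1-fold, limma adjusted p = 0.00189). It was too dim to be tested without Pparg ldi/+ array 1 or 2. Cxcl3, Cxcl5 and Cxcl15 were below the filter, with signals of 3.83 to 64.9 in wild type and 5.08 to 125 in Pparg ldi/+. Cxcr2, their receptor on neutrophils, was also dim, at 6.99 to 26.2 in wild type and 22.5 to 39.1 in Pparg ldi/+.

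Cxcl1 (KC), the main neutrophil chemoattractant of mice, depended on the probe set. The set read here gave 725, 399 and 481 in wild type and 455, 638 and 610 in Pparg ldi/+, which overlap, with a log2 difference of 0.11 (interval -0.38 to 0.60, limma adjusted p = 0.741). A slightly brighter set, annotated as open to cross-hybridisation, gave 0.43 and did not pass (adjusted p = 0.0659 when all probe sets were tested). The third set read 338, 116 and 116 in wild type and 595, 527 and 699 in Pparg ldi/+ and rose by 1.66 (3.16-fold, limma adjusted p = 0.00478 over all probe sets). The log2 ratio of the third set to the one read averaged -1.46 ± 0.39 over the wild-type arrays and 0.10 ± 0.32 over the Pparg ldi/+ arrays (SD, n = 3), without overlap. This pair of sets was compared after they were seen to disagree, so the ratio describes that disagreement and carries no test. The labels and files do not place the probes in the transcript.

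Cxcl15, a CXCR2 ligand gene between Cxcl3 and Cxcl1 on the chromosome, held none of the motifs searched in its window. The promoters of Cxcl1, Cxcl2 and Cxcl3 are shown because these CXCR2 ligand genes of the same cluster share a motif. They are the 250 bases before the RefSeq start on the plus strand of GRCm38.p6, chr5:90890995-90891244 for Cxcl1, chr5:90903649-90903898 for Cxcl2 and chr5:90785851-90786100 for Cxcl3, with matches to the wider NF-kB motif on either strand in capitals.
Cxcl1: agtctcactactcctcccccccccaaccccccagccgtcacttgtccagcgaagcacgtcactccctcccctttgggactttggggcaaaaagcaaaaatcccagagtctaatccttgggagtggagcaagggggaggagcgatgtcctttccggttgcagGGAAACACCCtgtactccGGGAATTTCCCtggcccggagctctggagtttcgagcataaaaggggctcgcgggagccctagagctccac
Cxcl2: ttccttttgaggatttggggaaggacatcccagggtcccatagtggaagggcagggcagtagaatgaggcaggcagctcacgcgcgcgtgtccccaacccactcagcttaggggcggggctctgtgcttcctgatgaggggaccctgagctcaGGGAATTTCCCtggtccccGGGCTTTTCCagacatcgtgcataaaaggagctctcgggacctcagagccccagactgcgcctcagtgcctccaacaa
Cxcl3: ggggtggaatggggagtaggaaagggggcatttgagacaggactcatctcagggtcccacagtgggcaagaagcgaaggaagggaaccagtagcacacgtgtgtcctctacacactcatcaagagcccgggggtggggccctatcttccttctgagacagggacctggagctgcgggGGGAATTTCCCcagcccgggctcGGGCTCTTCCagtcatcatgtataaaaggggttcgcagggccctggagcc

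Each of the 3 holds the run GGGAATTTCC, beginning 71 bases before the start in Cxcl1, 97 in Cxcl2 and 73 in Cxcl3. It also matches the narrower NF-kB motif (GGG and TTTCC with any NN between), which 1.63% of all windows hold and every match of which also matches the wider one. A PPAR response element, searched on both strands as AGGNCA and AGGNCA with any N between, occurred in 0.381% of all windows. Among the 36 members with a window it occurred only in Ccl6, beginning 88 bases before its start. Members without a window, such as Ccl2, Ccl4, Ccl5, Ccl7 and Cxcl16, were not searched. These matches are letters in a window and do not show that a factor binds.

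The probe sets of Cxcl12 passed in opposite directions. CXCL12, made by stromal and endothelial cells, holds CXCR4-bearing leukocytes and progenitors in tissues. The probe set read for Cxcl12 gave 1919, 1665 and 2166 in wild type and 2759, 2324 and 2435 in Pparg ldi/+ and rose by 0.39 (interval 0.13 to 0.64, 1.31-fold, limma adjusted p = 0.0289). The second set, nearly as bright in wild type, gave 1754, 1744 and 1766 in wild type and 801, 1004 and 817 in Pparg ldi/+. It fell by 0.99 on the log2 scale, to a mean of 874, with a limma adjusted p of 0.000179 over all probe sets, and neither pair of groups overlapped. The third set was dim and read 96.5 to 225 in wild type and 45.5 to 145 in Pparg ldi/+.

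The log2 ratio of the first Cxcl12 set to the second was 0.13, -0.07 and 0.29 on the wild-type arrays and 1.74, 1.18 and 1.54 on the Pparg ldi/+ arrays. The groups did not overlap, and the means differed by 1.37. The sets were compared because they had passed in opposite directions, so this ratio describes the disagreement and carries no test, and it does not tell which set follows the gene. The rise in the first set ended without Pparg ldi/+ array 1 (0.31) or array 3 (0.40), without wild-type array 1 (0.39) or array 2 (0.29), without the intensity trend (0.39) and with Pparg ldi/+ array 3 alone (0.35), and the mean of the 3 sets was -0.46 and passed. Cxcl12 was the only member for which 2 probe sets passed in opposite directions, among 18 members with several.

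Cxcr4, the CXCL12 receptor, read 503, 657 and 411 in wild type and 1163, 1263 and 1293 in Pparg ldi/+. It rose by 1.22 (interval 0.86 to 1.57, 2.32-fold, limma adjusted p = 0.000499), with no overlap, and also with Pparg ldi/+ array 3 alone (1.28). Ackr3, the atypical receptor that removes CXCL12 from the surroundings, is not among the 49 genes and was looked up after the values of Cxcl12 were seen. It fell 1.99-fold, from 2719 ± 484 to 1337 ± 148 (SD, n = 3, limma adjusted p = 0.000845). All 6 endothelial markers fell on the same arrays, and of 6 stromal markers 2 rose and 1 fell. The part of these cell types in the readings of Cxcl12 and Ackr3 was not tested.

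**Figure D3:**
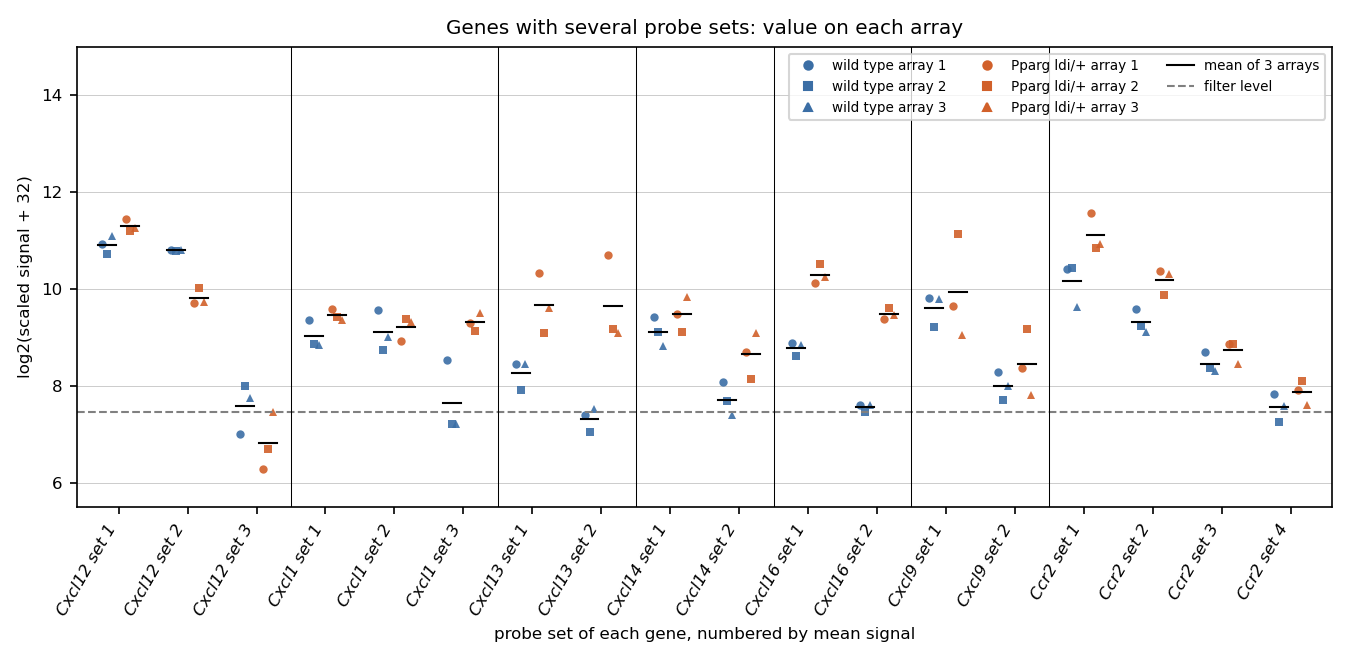
Log2(scaled signal + 32) on each array for every probe set of 7 members with several probe sets, numbered by mean signal within a gene; colours, symbols, bars and dashed line are as in the plot of ligands by array. The first and second sets of Cxcl12 move apart in Pparg ldi/+, the third set of Cxcl1 separates the genotypes where its first 2 sets do so weakly or not at all, and both sets of Cxcl13 and of Cxcl16 are higher in Pparg ldi/+.

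Cxcl16 and its receptor Cxcr6 rose together. CXCL16 is a membrane-anchored chemokine and scavenger receptor of macrophages and dendritic cells, and CXCR6 marks T cell and natural killer T cell subsets. Cxcl16 read 439, 361 and 425 in wild type and 1088, 1428 and 1187 in Pparg ldi/+, a log2 difference of 1.52 (interval 1.22 to 1.81, 2.87-fold, limma adjusted p = 5.4e-05). Its second probe set differed by 1.93. Cxcr6 read 57.1, 74.6 and 137 in wild type and 270, 287 and 305 in Pparg ldi/+ and rose by 1.45 (interval 0.87 to 2.02, 2.72-fold, limma adjusted p = 0.00263). Neither overlapped between the genotypes. Cxcr6 reached the filter through its Pparg ldi/+ values and was too dim to be tested without Pparg ldi/+ array 1 or 3.

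The fractalkine pair did not move together in the same way. Cx3cr1, the fractalkine receptor of monocytes and resident macrophages, had the largest difference of any tested receptor. It read 205, 244 and 176 in wild type and 850, 1236 and 1071 in Pparg ldi/+, a log2 difference of 2.17 (interval 1.79 to 2.54, 4.49-fold, limma adjusted p = 3.09e-05), and passed in each alternative that tested it. Cx3cl1, its ligand, read 188, 231 and 319 in wild type and 220, 249 and 177 in Pparg ldi/+, with overlap, and its difference of -0.15 did not pass (interval -0.64 to 0.33, adjusted p = 0.624). The intervals of these 2 genes do not overlap, but the difference between them was not tested.

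**Figure D4:**
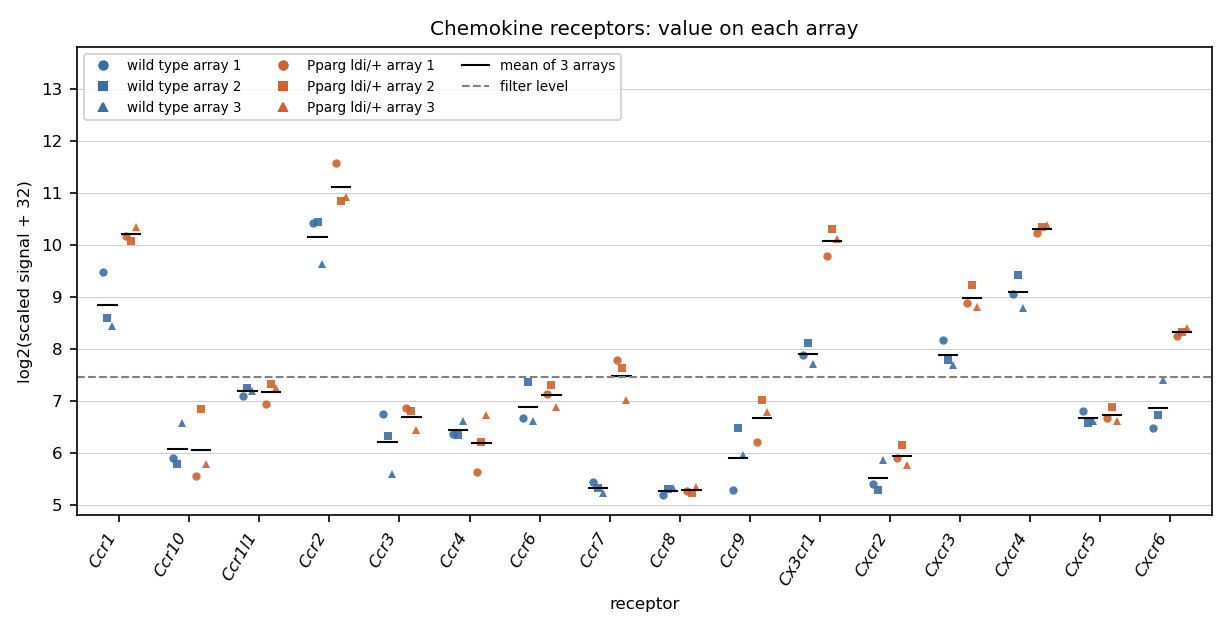
Log2(scaled signal + 32) of all 16 receptors on each of the 6 arrays, with symbols, bars and the dashed filter level of 7.46 as in the plot of ligands by array. The 6 tested receptors, Ccr1, Ccr2, Cx3cr1, Cxcr3, Cxcr4 and Cxcr6, separate the genotypes, Ccr7 does so below the test's filter, and the other dim receptors overlap.

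Cxcl13 rose, while its receptor gene was too dim to be tested. Cxcl13, which attracts B cells through CXCR5, read 317, 210 and 316 in wild type and 1256, 516 and 744 in Pparg ldi/+. It rose by 1.41 (interval 0.75 to 2.07, 2.65-fold, limma adjusted p = 0.00614), and its second probe set differed by 2.33. Pparg ldi/+ array 1 was the highest on both sets. Cxcr5 was below the filter at 63.5 to 79.5 in wild type and 65.4 to 86.4 in Pparg ldi/+. Ccr7, the receptor that guides dendritic cells and T cells to lymph nodes, was below the filter too, with 5.67 to 11.2 in wild type and 98.3 to 188 in Pparg ldi/+. Its groups did not overlap, and without a filter the limma adjusted p was 0.000861.

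The ligands of CCR10 did not rise. Ccl27a, a CCR10 ligand known from skin, was the only ligand that fell. It read 402, 318 and 305 in wild type and 244, 228 and 177 in Pparg ldi/+, a log2 difference of -0.59 (interval -0.98 to -0.20, limma adjusted p = 0.029). Its single probe set is of the kind open to cross-hybridisation, and near-identical copies of the gene exist, so the reading is uncertain. The call ended without Pparg ldi/+ array 2 (-0.63) or 3 (-0.47), without wild-type array 1 (-0.48) or 2 (-0.63), without the filter (-0.59), and with Pparg ldi/+ array 3 alone (-0.83). Ccl28, the mucosal CCR10 ligand, read 235, 227 and 391 against 241, 268 and 209, and overlapped, with a log2 difference of -0.19 (limma adjusted p = 0.547).

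Cxcl14, expressed by epithelial and stromal cells, read 650, 525 and 423 in wild type and 683, 525 and 879 in Pparg ldi/+. The difference of 0.36 did not pass (interval -0.11 to 0.82, adjusted p = 0.219). Its dimmer probe set read 238, 173 and 137 against 386, 251 and 517 and rose by 0.93 (limma adjusted p = 0.0253 over all probe sets). Ccr10 was below the filter at 23 to 62.9 in wild type and 14.9 to 83.7 in Pparg ldi/+.

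In all, 22 members lay below the filter, 12 ligands and 10 receptors. In 4 of the 12 ligands, Ccl3, Ccl22, Cxcl11 and Xcl1, and in 1 of the 10 receptors, Ccr7, every Pparg ldi/+ array lay above every wild-type array, beside 9.67% of all 6992 genes below the filter. Ccl22, a macrophage and dendritic cell ligand of CCR4, read 11.8 to 58.8 in wild type and 96.3 to 149 in Pparg ldi/+ and had a limma adjusted p of 0.0174 without a filter. Xcl1 (lymphotactin), made by activated T cells and natural killer cells, read 22.1 to 54.6 and 65.7 to 178, with 0.0608. The remaining dim ligands Ccl17, Ccl20, Ccl25 and Cxcl17 and receptors Ccr4, Ccr6 and Ccr9 overlapped between the genotypes, and their log2 differences ranged from -0.26 for Ccr4 to 0.76 for Ccr9. Other probe sets of Ccr9 and Ccl25 did not overlap: 2 of the 5 Ccr9 sets differed by 1.42 and 1.75, and the second Ccl25 set by 0.84, all of them below the filter.

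Chemokine genes lie in clusters, and their order on the chromosome, taken from RefSeq for GRCm38.p6, was no part of how they were chosen. With at most 200 kb between neighbours, 30 of the 49 genes fell into 7 clusters and 19 stood alone. In the first cluster of chromosome 11 the order was Ccl2, Ccl7, Ccl11, Ccl12, Ccl8 and Ccl1. Of the 5 tested genes 4 rose, beside 16.3% of all genes tested, and Ccl12 reached the filter through its Pparg ldi/+ values. Ccl11, at -0.04, lay between Ccl7 at 1.46 and Ccl12 at 4.18. In the second cluster of chromosome 11, Ccl5, Ccl9, Ccl6 and Ccl4 all rose, beside 16.3% of all genes tested.

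On chromosome 5, Cxcl9 at 0.33 lay next to Cxcl10 at 3.82 and Cxcl11 at 2.88, the last not tested. In the other chromosome 5 cluster of Cxcl5, Cxcl3, Cxcl15, Cxcl1 and Cxcl2, only Cxcl2 of 2 tested genes rose. In the receptor cluster of chromosome 9, Cxcr6, Ccr1 and Ccr2, the 3 tested genes of 6, rose, beside 16.3% of all genes tested. Of the genes named here, Cxcl10, Cxcl2 and Cxcr6 reached the filter through their Pparg ldi/+ values. Neighbouring genes thus did not all change alike, and their differences from each other were not tested.

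**Figure D5:**
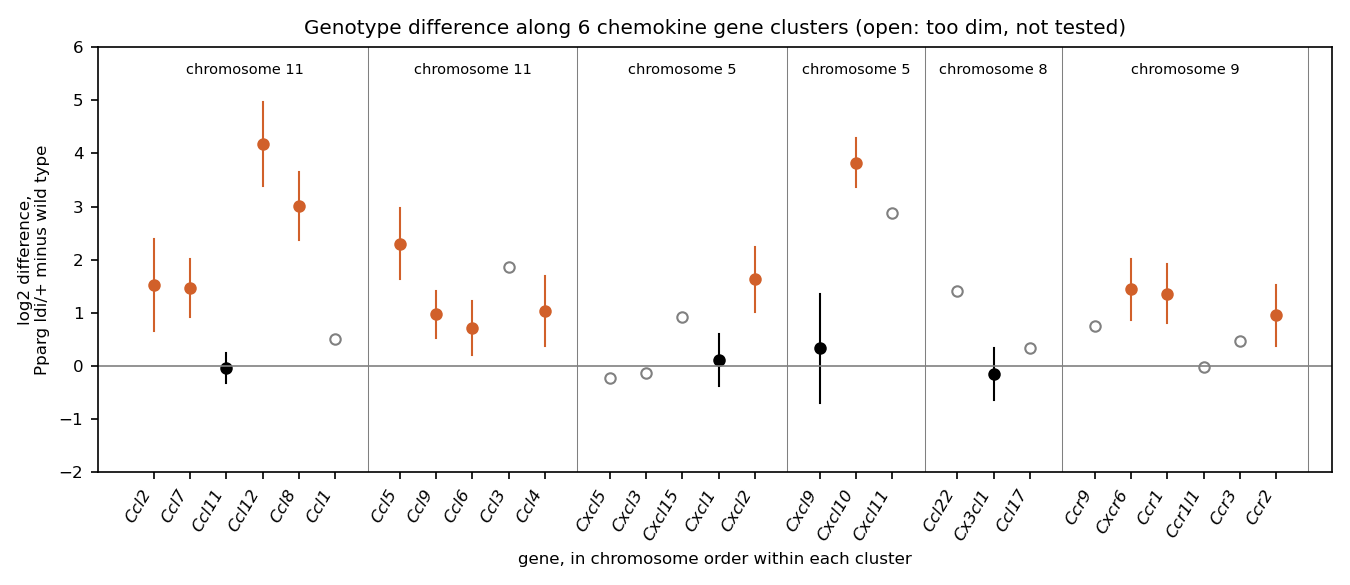
Log2 difference of Pparg ldi/+ minus wild type for the members of the 6 clusters with at least 3 members, in chromosome order, with 95% confidence intervals for tested genes and open circles for genes not tested. Ccl11 (-0.04) sits at 0 between Ccl7 (1.46) and Ccl12 (4.18), and Cxcl9 (0.33) lies below Cxcl10 (3.82).

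Relatives of the family whose symbols the rule does not match went both ways. Of 13 such genes, 11 were tested, 4 rose and 3 fell, and the median was 0.19. Among all genes tested, 16.3% rose and 16.4% fell. Pf4, the platelet and macrophage chemokine also named CXCL4, rose 2.21-fold from 3611 ± 735 to 7959 ± 1005 (SD, n = 3, limma adjusted p = 0.000463). Cmtm3, Cmtm7 and Cklf, chemokine-like factor genes, rose by 0.60, 0.99 and 0.89. Ackr2, the decoy receptor that degrades inflammatory CC chemokines, fell 2.68-fold (limma adjusted p = 0.0347). It read 376, 331 and 324 in wild type and 36.5, 109 and 251 in Pparg ldi/+. Pparg ldi/+ array 3, which lacked the epididymal transcripts, was thus the nearest to wild type. Whether those transcripts bear on the Ackr2 readings was not tested. The chemerin gene Rarres2, an adipokine, and its receptor Cmklr1 fell 1.71-fold and 2.29-fold (adjusted p of 0.000716 and 0.000214). Ackr1, the atypical receptor of venule endothelium, differed by 0.19 and did not pass.

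Among 51 genes of signalling downstream of chemokine receptors, 46 were found and 45 tested, of which 22 rose and 4 fell, with a median of 0.24. Of all genes tested, 16.3% rose and 16.4% fell. Those that rose included leukocyte components: Dock2, a Rac activator of migrating leukocytes (3.31-fold, limma adjusted p = 1.34e-05), Rac2, the Rac GTPase of blood cells (2.98-fold), Pik3r5, the regulatory subunit of PI3K-gamma (2.78-fold), and Prex1 (2.76-fold). Gng12 rose more than these, 3.97-fold (limma adjusted p = 1.4e-05). Another 19 tested genes did not pass, among them Pik3cd (-0.26), Plcb2 (-0.04), Jak3 (0.15) and Ptk2b (0.07). Of the 6 Rgs genes in the list, whose proteins switch off G protein signalling, 4 of the 5 tested rose, Rgs1 by 2.57, Rgs10 by 1.86, Rgs18 by 1.28 and Rgs2 by 0.89 on the log2 scale. Rgs19 (0.18) did not pass and Rgs16 was not tested. Of the receptor kinases and arrestins, which desensitise receptors, Grk3 (0.56) and Arrb2 (0.84) rose, Grk5 fell, and Grk6 (-0.16) and Arrb1 (-0.24) did not pass. The 4 that fell were Gnai1 at -0.83, Gng11 at -0.74, Tiam1 at -0.65 and Grk5 at -0.38. Many of these genes act downstream of other receptors too, and all macrophage markers rose and all endothelial markers fell on the same arrays.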

How the data were processed

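Total RNA of 6 fat pads, 1 mouse per array, was measured on 45101 probe sets, of which 64 controls were left out of the tests. The deposited values are linear signal intensities; MAS5 is named for 2 of the 6 arrays in the submitters' processing notes, with no version or scaling target, and no detection calls were used. Each array was scaled to a trimmed mean of 500 (2% trimmed at each end, factors of 2.12 to 2.49), 32 was added and log2 taken. Platform annotation gave 34945 probe sets 1 symbol, 932 several and 9160 none; 34741 symbols were updated by gene number in RefSeq's GRCm38.p6 table. A gene was read from its probe set with the highest mean, sets ending in x_at being left out where another existed. Genes with a mean log2 of at least 7.46 were tested with limma 3.58.1 in R 4.3.3 (eBayes with an intensity trend, two-sided, Benjamini-Hochberg over 11201 genes, threshold 0.05); the fit was tested on simulated data. Motifs were searched on both strands of RefSeq promoter windows. All members are described, and genes outside the family come from named lists of relatives, signalling genes and cell type markers. The members and lists were chosen with earlier results of these data known. The alternatives changed the offset, scaling, filter, variance model, array weights, probe set, threshold, replicate block and arrays used.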

Additional observations from a re-analysis of the deposited data

How the results depend on the processing

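Of the 20 members past the threshold, 12 passed in every one of the 22 alternatives that tested them, and Ccl2, Ccl4, Ccl6, Ccl7, Cxcl12, Ccl27a, Ccr2 and Cxcr3 did not pass in at least 1. Among those 12, Cxcr6 was tested in only 16 alternatives, Cxcl2 in 18 and Ccl12 in 20, so their calls were tried less often. Also among them, Ccl12, Ccl5, Ccl8, Cxcl10, Cxcl2 and Cxcr4 have a single probe set. The alternatives that change the probe set read the same values for these genes and could not try their calls on another set. The 13 ligands and 6 receptors that rose, and the 1 ligand that fell, were 13, 6 and 1 under other offsets, unscaled values, quantile normalisation and the replicate block. Arrays with the same number in their titles did not deviate together (correlations of same-number deviations of -0.127, -0.0857 and -0.0945). Deviations from a mean of 3 arrays depend on each other, so this cannot settle whether the numbers mark litters. With the replicate block 3166 genes passed in all, beside 3668. Leaving out 1 array at a time gave 8 to 12 ligands higher, 0 to 1 lower and 4 to 6 receptors higher, with 2736 to 3348 genes in all. With Pparg ldi/+ array 3 alone, 6 ligands were higher, 0 lower and 3 receptors higher, of 1611 genes; at a threshold of 0.01, 9 ligands were higher and 0 lower, of 2238 genes. The number of ligands lower was also 0 without a filter or with only the brightest 30% of probe sets tested, and 2 when probe sets of a gene were averaged or the second one was read. With the second probe set 3 receptors were higher, Ccr2, Cxcr3 and Cxcr4, of which Cxcr3 and Cxcr4 have a single set. The second sets of Ccr1 (0.81), Cx3cr1 (2.58) and Cxcr6 (1.91) were too dim to be tested. Cxcl12 turned to -0.46 with the mean of its probe sets and to -0.99 with the second, while Cxcl1 passed at 0.73 and 1.66 and Cxcl14 at 0.93 with the second set alone. The cause of these probe set differences was not tested. Testing every probe set on its own was chosen after seeing the data and gave 13 ligands higher, 1 lower and 6 receptors higher for the sets read here. Dim signal limits the 22 members below the filter, which the main test leaves out.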
